A study of Homo sapiens with 18 samples.

Results

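Transcripts of 10 heat shock protein genes (HSPA8, HSPA1A, HSPA1B, HSPH1, DNAJB1, HSP90AA1, HSP90AB1, HSPB1, HSPD1 and HSPE1) were followed by RNA-seq in HCT116 cells, a line established from a human colorectal carcinoma, over 18 libraries. The members were taken by gene symbol, and all 10 were found among the 31004 genes of the count table. They were chosen by measured values, after HSPA8, and the small nucleolar RNAs in its introns, had been seen to be low in Antisense_NC against Ctrl_NC. Levels in Antisense_NC (cells that expressed the antisense RNA) against Ctrl_NC and against CRLM1_NC are therefore a description and carry no test. The working name of the set was cytosolic heat shock proteins. It fitted 8 of the 10, whereas HSPD1 and HSPE1 encode the chaperonin of the mitochondrial matrix and its lid.

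The cells carried a stable lentiviral insert that expressed the long noncoding RNA CRLM1 (CRLM1 groups), its antisense RNA (Antisense groups) or nothing beyond the empty vector (Ctrl groups), and had been selected with puromycin. Each background was then transiently transfected for hnRNPK overexpression (hnRNPK groups) or with a negative control (NC groups). This gave Ctrl_NC, Ctrl_hnRNPK, CRLM1_NC, CRLM1_hnRNPK, Antisense_NC and Antisense_hnRNPK, with 3 libraries in each. The labels call the libraries of a group biological replicates but do not say whether cultures were separate, so p-values measure the spread between these libraries. Whether a stable line was a single clone or a pool was not given in the sources used here.

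Heat shock proteins are molecular chaperones. HSP70 proteins such as HSPA8 bind stretches of unfolded protein and release them through cycles of ATP hydrolysis, which J-domain proteins such as DNAJB1 start and nucleotide exchange factors such as HSPH1 complete. HSP90 proteins mature kinases and steroid receptors, small heat shock proteins such as HSPB1 hold unfolded proteins without ATP, and HSPD1 with HSPE1 folds proteins imported into mitochondria. Under stress, the transcription factor HSF1 binds heat shock elements, inverted repeats built from GAA and TTC, in the promoters of many of these genes. HSPA8 and HSP90AB1 are also made at high levels in unstressed cells, and cancer cell lines commonly express several members without heat.

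Total counts ran from 19732681 to 27039520 per library, and 3 counts, the floor used here, corresponded to 0.0972 to 0.165 CPM (counts divided by the scaled library size). Epithelial markers were present in every group (EPCAM at 102 to 151 FPKM and KRT18 at 217 to 422 FPKM as group means), while among 8 markers of other cell types PTPRC, PECAM1, DCN and COL1A2 stayed at or below 0.0033 FPKM, VWF and ALB at or below 0.0267 FPKM, COL1A1 was at 1.84 to 3.73 FPKM and CD3E had no row in the table. The gene of CRLM1, LINC01767 (RP4-710M16.2 in the table), had 0 counts in the Ctrl libraries, 579.9 to 658 CPM in the CRLM1 libraries and means of 49.8 CPM in Antisense_NC and 42.2 CPM in Antisense_hnRNPK. HNRNPK lay between 424 and 480 CPM in the NC libraries and between 491 and 713 CPM in the hnRNPK libraries. Replicate 3 of Ctrl_hnRNPK and replicate 3 of CRLM1_hnRNPK, called the third hnRNPK libraries here, stood apart. They correlated with the NC libraries of their background at 0.992 (Ctrl) and 0.982 to 0.983 (CRLM1) over log2 CPM, against 0.920 to 0.929 and 0.900 to 0.913 with their own group. The study left both out after seeing their profiles, so fold changes, snoRNA ratios and correlations of the members that rest on them are given with all libraries and without these 2. In bulk RNA, fewer cells that express a gene and less of its RNA per cell cannot be told apart.

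HSPA8, the constitutive HSP70 of the cytosol, lies on the minus strand of chromosome 11 (GRCh38, 123057489 to 123063230) and holds 3 box C/D small nucleolar RNAs (snoRNAs) in its introns. SNORD14C, SNORD14D and SNORD14E lie in introns 5, 6 and 8 of its 9-exon transcript. Box C/D snoRNAs guide 2′-O-methylation of ribosomal RNA and are trimmed out of the spliced introns of their hosts. They are printed 5′ to 3′ because their counts are set beside those of the host. Capitals mark the letters of box C (TGATGA) and of box D (CTGA), and SNORD14D holds no match to the latter.
SNORD14C (chr11:123059335-123059422, minus strand): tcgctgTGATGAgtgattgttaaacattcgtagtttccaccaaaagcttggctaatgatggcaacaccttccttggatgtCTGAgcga
SNORD14D (chr11:123058909-123058995, minus strand): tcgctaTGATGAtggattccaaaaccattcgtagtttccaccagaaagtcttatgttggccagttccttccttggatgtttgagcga
SNORD14E (chr11:123058077-123058161, minus strand): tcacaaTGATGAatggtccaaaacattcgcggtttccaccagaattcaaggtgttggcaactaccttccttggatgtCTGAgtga

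Heat shock elements were searched in the promoters of all 10 genes, as the sequence that HSF1 is known to bind. RefSeq (GRCh38.p14) gave 16 windows for the 10 genes, each from 250 bases before to 50 bases after a transcription start. The motif GAANNTTC or TTCNNGAA, each its own reverse complement so that both strands are covered, was present in 9 of these windows and in 8 of the 10 genes, all except HSPH1 and HSPE1. Of all 35116 RefSeq windows of this length, 13.5% held it. Longer forms with 3 units (GAANNTTC followed by NNGAA, or TTCNNGAA followed by NNTTC), which contain the shorter motif, were present in 0.490% of all windows and in HSPA8, HSP90AA1, HSP90AB1 and HSPD1. A match describes letters and was not tested as a bound site, and no match says only that these letters are not in the window. The windows of HSPD1 and HSPE1 overlap.

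The 250 bases upstream of the start are shown for 3 genes as examples, with the motif in capitals. HSPA1B differed most between groups, and HSPA8 and HSP90AA1 carried several matches. HSP90AB1, HSPD1 and DNAJB1 also carried several matches in 1 window and are not shown. In HSPA8 the matches began 230, 225, 55 and 50 bases before the start and formed a pair of such longer elements, while HSPA1B held a single match 105 bases before the start. HSP90AA1 held matches 88, 83 and 68 bases before 1 of its starts.
HSPA8 (chr11:123062137-123062386, minus strand): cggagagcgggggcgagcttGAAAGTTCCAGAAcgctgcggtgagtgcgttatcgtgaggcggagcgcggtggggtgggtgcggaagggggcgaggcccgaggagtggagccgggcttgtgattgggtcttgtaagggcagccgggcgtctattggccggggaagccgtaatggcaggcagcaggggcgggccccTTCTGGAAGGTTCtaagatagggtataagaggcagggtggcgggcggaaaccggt
HSPA1B (chr6:31827488-31827737, plus strand): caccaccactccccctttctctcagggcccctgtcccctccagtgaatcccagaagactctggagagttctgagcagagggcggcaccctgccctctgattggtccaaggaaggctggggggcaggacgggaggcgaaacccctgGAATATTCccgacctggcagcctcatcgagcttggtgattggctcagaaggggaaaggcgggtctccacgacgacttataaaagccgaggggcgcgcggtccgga
HSP90AA1 (chr14:102087045-102087294, minus strand): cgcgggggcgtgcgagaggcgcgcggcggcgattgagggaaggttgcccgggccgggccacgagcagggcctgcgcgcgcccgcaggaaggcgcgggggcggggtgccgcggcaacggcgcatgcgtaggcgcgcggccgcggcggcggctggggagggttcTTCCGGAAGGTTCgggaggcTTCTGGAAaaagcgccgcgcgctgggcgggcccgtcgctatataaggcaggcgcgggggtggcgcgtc

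Levels between genes were compared as FPKM, which divides by length. In Ctrl_NC the mean FPKM (± SD, n = 3) was 590.1 ± 13.8 for HSP90AB1, 547 ± 12.9 for HSPB1 and 509.6 ± 16.5 for HSPA8, the most abundant members. HSP90AA1 (159 ± 4.97), HSPD1 (130.4 ± 0.737) and DNAJB1 (126 ± 2.82) formed a middle range, above HSPE1 (74.7 ± 3.06) and HSPA1B (69.9 ± 4.14). HSPH1 was low, at 4.90 ± 0.159 FPKM, and HSPA1A was listed at 0.173 ± 0.0603 FPKM. Across the 6 groups, the highest group mean exceeded the lowest by 17.4-fold for HSPA1B, 5.08-fold for HSPB1, 4.33-fold for HSPA8 and 4.13-fold for DNAJB1 in CPM. The other members except HSPA1A spanned 1.68-fold (HSP90AB1) to 2.84-fold (HSP90AA1). The lowest mean of each of the 10 members was in an Antisense group. This is a description, because the set was chosen on low values in Antisense_NC, and the share of all genes with this pattern was not counted.

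**Figure D1:**
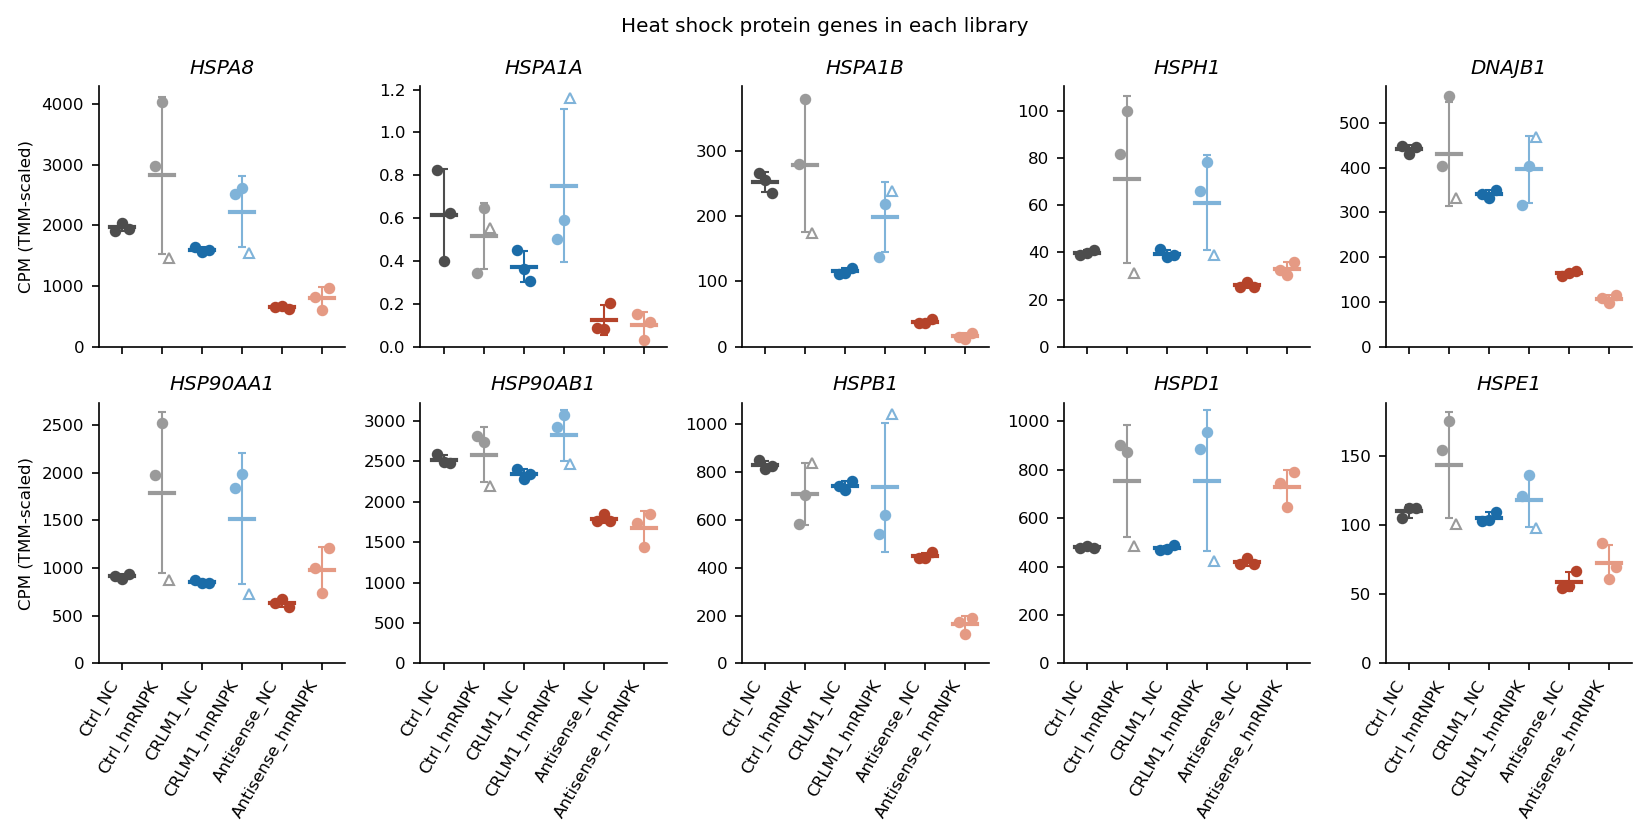
CPM after TMM scaling (y axes, linear, from 0) of each of the 10 genes in the 6 groups (x axes). Points are libraries, open triangles replicate 3 of Ctrl_hnRNPK and of CRLM1_hnRNPK, horizontal lines group means and vertical bars SD (n = 3). The Antisense_NC libraries lay below the Ctrl_NC and CRLM1_NC libraries for every gene, HSPA1B and HSPB1 were lowest in Antisense_hnRNPK, and the open triangles lay far below the other libraries of their group for HSPA8, HSP90AA1, HSPH1 and HSPD1.

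HSPA8 was measured at 1912, 2040.4 and 1944 CPM in Ctrl_NC, at 1638, 1567 and 1589 CPM in CRLM1_NC and at 650.5, 678 and 629 CPM in Antisense_NC. The 3 NC groups did not overlap, with Antisense_NC lowest. With hnRNPK, HSPA8 reached 2979, 4032 and 1458 CPM in Ctrl_hnRNPK, 2518, 2608 and 1547 CPM in CRLM1_hnRNPK and 822, 603 and 969 CPM in Antisense_hnRNPK. In both Ctrl_hnRNPK and CRLM1_hnRNPK the third library was lower than every NC library of its background, and the other libraries were higher than all of them. By group mean the order was Ctrl_hnRNPK (2823 ± 1294 CPM), CRLM1_hnRNPK (2225 ± 588), Ctrl_NC (1966 ± 66.7), CRLM1_NC (1598 ± 36.0), Antisense_hnRNPK (798 ± 184) and Antisense_NC (652 ± 24.3). The ranges of the first 4 groups overlapped except for Ctrl_NC and CRLM1_NC, the ranges of the Antisense groups overlapped each other, and no Antisense library reached the other 4 groups.

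HSPA1B, a stress-inducible HSP70 gene on the plus strand of chromosome 6 (31827738 to 31830254), showed the widest range. It stood at 265, 255 and 235 CPM in Ctrl_NC, 112, 113 and 121 CPM in CRLM1_NC and 36.2, 36.5 and 42.0 CPM in Antisense_NC. With hnRNPK it stood at 280.2, 379 and 174 CPM in Ctrl_hnRNPK, 137, 219 and 239 CPM in CRLM1_hnRNPK and 15.2, 11.9 and 20.8 CPM in Antisense_hnRNPK. Every Antisense_hnRNPK library was below every Antisense_NC library, and every CRLM1_hnRNPK library was above every CRLM1_NC library. Its neighbour HSPA1A, which encodes a nearly identical protein, had 1 to 26 counts in any library. Only uniquely mapped reads were counted, and 69.6% of the 151-base windows of the HSPA1A transcript also occur in HSPA1B (66.1% in the reverse direction), so the split of reads between them is uncertain. HSPA1A made up 0.123 to 0.988% of the counts of the pair. Its counts were 15, 10 and 14 in Ctrl_NC and 2, 2 and 4 in Antisense_NC.

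DNAJB1, the inducible J-domain partner of HSP70 (chromosome 19, 14514769 to 14560391, minus strand), was at 448, 431 and 446 CPM in Ctrl_NC, 341, 331 and 349 CPM in CRLM1_NC and 158, 165 and 169 CPM in Antisense_NC. With hnRNPK it was at 403, 559 and 332 CPM in Ctrl_hnRNPK, 317, 404 and 467 CPM in CRLM1_hnRNPK and 108, 97.7 and 115 CPM in Antisense_hnRNPK. Its NC groups did not overlap, and Antisense_hnRNPK lay below Antisense_NC. HSPH1, an HSP110 protein that exchanges the nucleotide of HSP70 (chromosome 13, 31134973 to 31162388, minus strand), was at 38.7 to 41.1 CPM in Ctrl_NC, 38.2 to 41.4 CPM in CRLM1_NC and 25.4 to 27.5 CPM in Antisense_NC. It was at 81.6, 99.8 and 31.4 CPM in Ctrl_hnRNPK, 65.9, 78.2 and 38.8 CPM in CRLM1_hnRNPK and 32.5, 30.6 and 36.1 CPM in Antisense_hnRNPK. Ctrl_NC and CRLM1_NC overlapped for HSPH1, and replicate 3 of Ctrl_hnRNPK and of CRLM1_hnRNPK was again near or below the NC level.

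HSP90AA1, the inducible cytosolic HSP90 (chromosome 14, 102080742 to 102139699, minus strand), was at 921, 885 and 938 CPM in Ctrl_NC, 870.5, 848 and 844 CPM in CRLM1_NC and 629, 671 and 592 CPM in Antisense_NC. It was at 1978, 2523 and 875 CPM in Ctrl_hnRNPK, 1838, 1985 and 727 CPM in CRLM1_hnRNPK and 1004, 742 and 1208 CPM in Antisense_hnRNPK. All 3 Antisense_hnRNPK libraries were above Antisense_NC, whereas in the other backgrounds the third hnRNPK library was below all NC libraries. HSP90AB1, the constitutive HSP90 (chromosome 6, 44246166 to 44253888, plus strand), varied least, with 2473 to 2582 CPM in Ctrl_NC, 2279.7 to 2405 CPM in CRLM1_NC and 1756 to 1846 CPM in Antisense_NC. Its hnRNPK libraries ran from 2193 to 2809.9 CPM in Ctrl_hnRNPK, 2458 to 3073 CPM in CRLM1_hnRNPK and 1444 to 1849 CPM in Antisense_hnRNPK.

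HSPB1, the small heat shock protein HSP27 (chromosome 7, 76302673 to 76304295, plus strand), was at 848, 810.4 and 825 CPM in Ctrl_NC, 742, 725 and 762 CPM in CRLM1_NC and 442, 442 and 464 CPM in Antisense_NC. With hnRNPK it was at 583, 703 and 839 CPM in Ctrl_hnRNPK, 542, 619.9 and 1043 CPM in CRLM1_hnRNPK and 175, 122 and 192 CPM in Antisense_hnRNPK. The Antisense_hnRNPK libraries were below all others, and the third hnRNPK library of the Ctrl and CRLM1 backgrounds was the highest of its group, the reverse of HSPA8 and HSP90AA1.

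HSPD1, the mitochondrial chaperonin subunit HSP60 (chromosome 2, 197486584 to 197516737, minus strand), was at 476 to 483 CPM in Ctrl_NC, 470.2 to 488 CPM in CRLM1_NC and 409.8 to 434 CPM in Antisense_NC. It was at 902, 871 and 485 CPM in Ctrl_hnRNPK, 886, 956 and 423 CPM in CRLM1_hnRNPK and 743, 647 and 789 CPM in Antisense_hnRNPK. Its Antisense_hnRNPK libraries were all above Antisense_NC. They lay within the range of the other hnRNPK groups only through the third hnRNPK libraries (485 and 423 CPM). Every other library of those groups was above them. HSPE1, the HSP10 lid of the same chaperonin (chromosome 2, 197500140 to 197503449, plus strand), was at 105 to 113 CPM in Ctrl_NC, 103 to 109.6 CPM in CRLM1_NC and 54.3 to 67.1 CPM in Antisense_NC. It ranged from 101 to 175 CPM in Ctrl_hnRNPK, from 97.5 to 136 CPM in CRLM1_hnRNPK and from 61.3 to 87.2 CPM in Antisense_hnRNPK. The genes overlap on opposite strands of chromosome 2, the read-through gene HSPE1-MOB4 was at 10.7% of the CPM of HSPE1, and the sources do not state whether counting used the strand, so reads of HSPD1, HSPE1 and HSPE1-MOB4 may be shared out in an uncertain way. HSPA1B, HSPA8, HSP90AA1 and DNAJB1 also overlap annotated genes and carry the same uncertainty. Rows for pseudogenes of the members were each at or below 0.142% of the member.

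In Antisense_NC against Ctrl_NC, the contrast that chose the set, the log2 fold changes were -2.77 for HSPA1B, -1.64 for HSPA8, -1.48 for DNAJB1, -0.95 for HSPE1, -0.93 for HSPB1, -0.65 for HSPH1, -0.58 for HSP90AA1, -0.54 for HSP90AB1 and -0.25 for HSPD1. All 9 members that passed the filter on low counts were lower in every Antisense_NC library than in any Ctrl_NC library, as were 30.7% of all genes, and the median over the members was -0.93 against -0.00 over all genes. On the FPKM scale HSPD1 overlapped between these groups. In CRLM1_NC against Antisense_NC the same 9 were higher without overlap, as were 26.5% of all genes (34.2% were lower), from 0.23 (HSPD1) to 1.33 (HSPA8) and 1.63 (HSPA1B) on the log2 scale. The 2 contrasts share the Antisense_NC libraries.

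The snoRNAs of HSPA8 were measured beside their host. SNORD14C had 91, 157 and 130 counts in Ctrl_NC, 43, 48 and 41 in CRLM1_NC and 1, 3 and 1 in Antisense_NC. SNORD14D and SNORD14E together with it gave 9.59, 10.0 and 11.1 counts per 1000 HSPA8 counts in Ctrl_NC, 3.84, 3.88 and 4.43 in CRLM1_NC and 0.265, 0.623 and 0.163 in Antisense_NC. The 3 groups did not overlap, so the snoRNA counts differed by more than the host did. As pooled counts scaled by library size, Antisense_NC was lower than Ctrl_NC by 76.6-fold for SNORD14C, 76.0-fold for SNORD14D and 97.1-fold for SNORD14E, a description from the contrast that chose the set. SNORD14A and SNORD14B, which lie in introns of the ribosomal protein gene RPS13, were lower by 4.56-fold and 2.10-fold. Reads of unspliced HSPA8 RNA over a snoRNA cannot be told apart from the snoRNA itself, and the snoRNAs, at 85 to 88 bases, are shorter than the 151-base reads.

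With hnRNPK the snoRNA sum was 10.4, 7.86 and 5.80 per 1000 HSPA8 counts in Ctrl_hnRNPK, 5.85, 7.42 and 8.45 in CRLM1_hnRNPK and 0.0922, 0.269 and 0.121 in Antisense_hnRNPK. The Antisense groups overlapped each other and lay below all other libraries, with 16 snoRNA counts in all in Antisense_NC and 10 in Antisense_hnRNPK. The ratio was lower in CRLM1_NC (4.05 ± 0.329) than in Ctrl_NC (10.2 ± 0.761) in 3 of 3 libraries, and higher in CRLM1_hnRNPK (7.24 ± 1.31) than in CRLM1_NC in 3 of 3. In the exact two-sided permutation test each gave p = 0.1, the smallest that 3 against 3 libraries allow, and 0.2 after Benjamini-Hochberg adjustment over the 4 comparisons of this ratio. Ctrl_hnRNPK against Ctrl_NC gave an exact p of 0.3 (adjusted 0.4) and CRLM1_hnRNPK against Ctrl_hnRNPK an exact p of 0.7 (adjusted 0.7). Without the third libraries, a setting chosen after seeing the data for this ratio, the mean was 6.64 in CRLM1_hnRNPK against 4.05 in CRLM1_NC (exact p = 0.1, the smallest possible) and 9.15 in Ctrl_hnRNPK against 10.2 in Ctrl_NC (exact p = 0.5), and CRLM1_hnRNPK against Ctrl_hnRNPK gave an exact p of 0.333, the smallest that 2 against 2 libraries allow. In the fit across all genes, CRLM1_NC against Ctrl_NC gave log2 fold changes of -1.48 for SNORD14C (adjusted p = 1.6e-07), -1.39 for SNORD14D (adjusted p = 4.0e-07) and -2.01 for SNORD14E (adjusted p = 1.8e-11). SNORD14A was at -0.95 (adjusted p = 0.148) and SNORD14B at -0.32 (adjusted p = 0.583). In that fit 17.4% of all genes were called lower. The snoRNAs of HSPA8 had been seen to be low in Antisense_NC against the same Ctrl_NC libraries. Tests of them against Ctrl_NC are therefore not independent evidence.

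**Figure D2:**
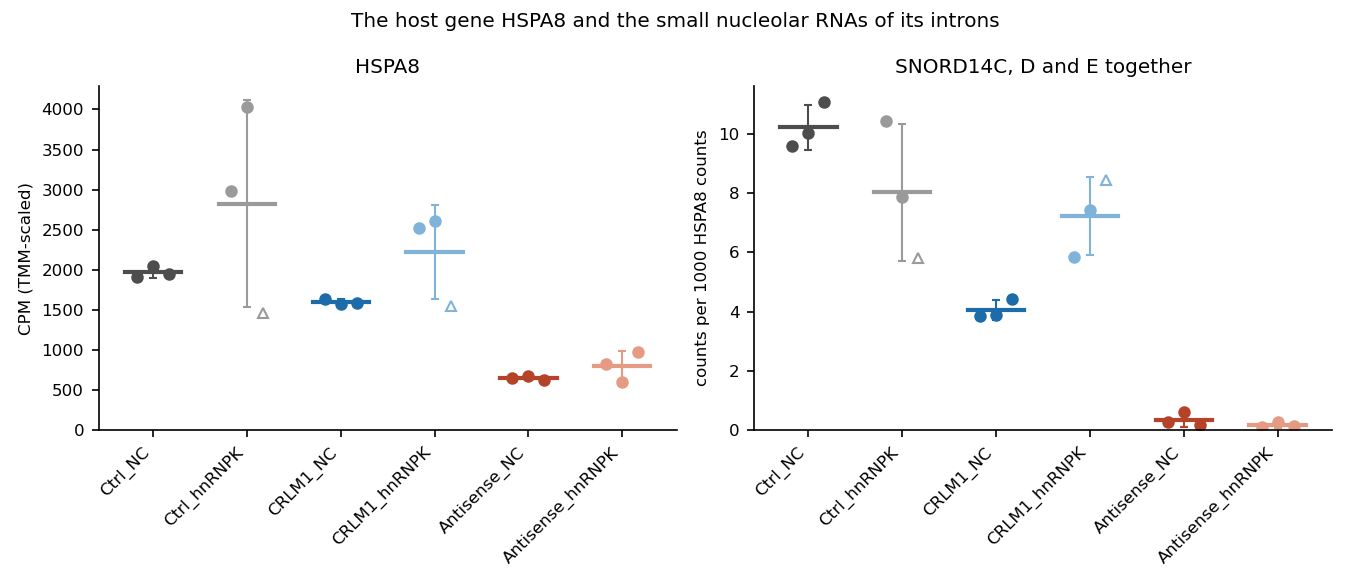
Left, CPM of HSPA8, and right, summed counts of SNORD14C, SNORD14D and SNORD14E per 1000 counts of HSPA8 (y axes, linear, from 0), by group (x axes). Points are libraries, open triangles replicate 3 of Ctrl_hnRNPK and of CRLM1_hnRNPK, lines means and bars SD (n = 3). The ratio was about 10.2 in Ctrl_NC, 4.05 in CRLM1_NC and at most 0.623 in any Antisense library.

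CRLM1 was compared with the empty control without hnRNPK (CRLM1_NC against Ctrl_NC) to ask which members changed with the long noncoding RNA itself. HSPA1B, DNAJB1, HSPA8, HSPB1, HSP90AB1 and HSP90AA1 were lower with CRLM1 and passed an adjusted p of 0.05, which made 6 of the 9 members tested lower and 0 higher, while 17.4% of all genes were called lower, 16.9% higher and 34.3% in either direction. HSPA1B fell by 1.14 on the log2 scale (SE 0.041, adjusted p = 3.9e-23), DNAJB1 by 0.39 (SE 0.031, adjusted p = 3.8e-13) and HSPA8 by 0.31 (SE 0.028, adjusted p = 4.8e-12). Changes of HSPB1 (-0.17, adjusted p = 7.2e-06), HSP90AB1 (-0.12, adjusted p = 5.0e-04) and HSP90AA1 (-0.11, adjusted p = 0.0016) were small. HSPE1 (-0.08, adjusted p = 0.173), HSPH1 (-0.03, adjusted p = 0.774) and HSPD1 (-0.02, adjusted p = 0.620) did not pass. Only HSPA1B also met the 2-fold limit the study used, as did 1.58% of all genes. The same 6 members did not overlap between the groups, as was so in the lower direction for 20.3% of all genes. On the FPKM scale HSP90AA1 (152.76 to 156.84 against 153.54 to 163.32 FPKM) and HSP90AB1 overlapped, and HSPD1 was higher without overlap. By limma on that scale 4 members passed as lower, with 12.2% of all genes lower and 35.3% called in either direction, while HSP90AA1 (-0.04, adjusted p = 0.347) and HSP90AB1 (-0.04, adjusted p = 0.295) did not pass. Relative to the median of all genes, 0.07 higher there, they stood at -0.11 and -0.12. The Ctrl_NC libraries are shared with the contrast that chose the set. HSPB1, the member richest in GC, no longer passed once a trend on GC content and length was removed (-0.05, adjusted p = 0.210), whereas HSPD1 then did (-0.10, adjusted p = 0.0066). In 1 fit over all 18 libraries, which shares the spread of the hnRNPK libraries, only HSPA1B passed, with 0.313% of all genes lower and 0.651% in either direction.

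The hnRNPK effect was examined within each background. Ctrl_hnRNPK against Ctrl_NC called 0 of the 10 members and 0% of 14607 genes with all libraries (2246 genes at an unadjusted p under 0.05, and 0 genes by DESeq2). Without the third library, HSP90AA1, HSPH1, HSPD1, HSPA8, HSPE1, HSPA1B and HSP90AB1 rose and HSPB1 fell, with 29.6% of all genes higher, 29.9% lower and 59.6% called in either direction. HSP90AA1 rose by 1.32 on the log2 scale (SE 0.076, adjusted p = 1.7e-08), HSPH1 by 1.21 (adjusted p = 4.8e-09), HSPD1 by 0.91 (adjusted p = 6.8e-10) and HSPA8 by 0.86 (SE 0.108, adjusted p = 2.5e-04), against 0.95, 0.82, 0.63 and 0.51 with all libraries (adjusted p = 0.320 to 0.368). HSPE1 rose by 0.61, HSPA1B by 0.41 and HSP90AB1 by 0.16, HSPB1 fell by 0.34 (adjusted p = 1.7e-04), and DNAJB1 was at 0.15 (adjusted p = 0.291). With all libraries HSPD1 alone did not overlap between the groups, being higher, as was so for 12.5% of all genes.

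CRLM1_hnRNPK against CRLM1_NC likewise called 0 of the 10 members and 0% of 14394 genes with all libraries (1332 genes at an unadjusted p under 0.05, and 2 genes but no member by DESeq2). Without the third library 6 members rose and 1 fell, with 29.5% of all genes higher, 29.1% lower and 58.5% called in either direction. HSP90AA1 rose by 1.21 (SE 0.047), HSPD1 by 1.00, HSPH1 by 0.92 and HSPA8 by 0.73 (SE 0.045, adjusted p = 8.5e-14), against 0.88, 0.72, 0.68 and 0.53 with all libraries (adjusted p = 0.533). HSP90AB1 rose by 0.40 and HSPE1 by 0.34, and HSPB1 fell by 0.31 (adjusted p = 1.1e-05), having been at 0.02 with all libraries. HSPA1B was at 0.67 (adjusted p = 0.097) and DNAJB1 at 0.13 (adjusted p = 0.135). With all libraries HSPA1B, HSP90AB1 and the low-count HSPA1A were higher without overlap, as were 6.67% of all genes. Of all genes, 29.6% (Ctrl) and 29.5% (CRLM1) were called higher in these fits. The 7 of 10 and 6 of 10 members higher were larger shares than over the whole table, a difference that was not tested.

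Antisense_hnRNPK against Antisense_NC, whose 3 hnRNPK libraries resembled one another, called 7 of the 9 members tested, 4 higher and 3 lower, with 33.4% of all genes higher and 30.5% lower, so that a share of 63.9% was called in either direction. HSPB1 fell by 1.47 on the log2 scale (SE 0.124, adjusted p = 4.2e-07), HSPA1B by 1.27 (SE 0.151, adjusted p = 6.8e-06) and DNAJB1 by 0.62 (SE 0.077, adjusted p = 7.8e-06). HSPD1 rose by 0.79 (SE 0.084, adjusted p = 2.1e-06), HSP90AA1 by 0.63 (SE 0.130, adjusted p = 7.3e-04), HSPH1 by 0.33 (adjusted p = 0.0055) and HSPE1 by 0.29 (adjusted p = 0.046). HSPA8 (0.28, adjusted p = 0.063) and HSP90AB1 (-0.10, adjusted p = 0.371) did not pass. By limma on the FPKM scale HSPA8 did pass as higher (0.51, adjusted p = 0.0058), at 223.09 to 323.23 against 183.97 to 200.52 FPKM. Relative to the median of all genes, 0.23 higher there, it stood at 0.28. On that scale 5 members passed as higher and 3 as lower, with 43.6% of all genes higher and 22.6% lower. In CPM, libraries of the groups did not overlap for HSP90AA1, HSPH1 and HSPD1 (higher, as for 35.4% of all genes) nor for HSPB1, HSPA1B and DNAJB1 (lower, as for 33.1%). The 9 members had a median of 0.28, against 0.04 over all genes. These libraries include Antisense_NC, in which the members were seen to be low.

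The base composition of the transcripts moved with the hnRNPK effect. Across genes the log2 fold change correlated with transcript GC content at a Spearman coefficient of -0.71 in the Antisense background, and at -0.74 (Ctrl) and -0.76 (CRLM1) without the third libraries, across genes that are not independent replicates. The members span much of that range, from HSPE1 (36.9% GC), HSPD1 (38.6%) and HSPH1 (39.6%) through HSP90AA1 (45.2%), HSPA8 (45.7%) and HSP90AB1 (48.1%) to DNAJB1 (56.3%), HSPA1B (58.8%), HSPA1A (59.8%) and HSPB1 (64.3%). In the Antisense background HSPB1 (-1.47) and HSPA1B (-1.27) were below the medians of genes within 1 percentage point of GC (-0.68 and -0.53). HSPD1 (0.79 against 0.69), HSPA8 (0.28 against 0.27) and DNAJB1 (-0.62 against -0.44) and HSP90AB1 (-0.10 against 0.08) were within the middle 50% of such genes, HSP90AA1 (0.63 against 0.31) was just above it, while HSPE1 (0.29 against 0.70) and HSPH1 (0.33 against 0.64) were below it.

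**Figure D3:**
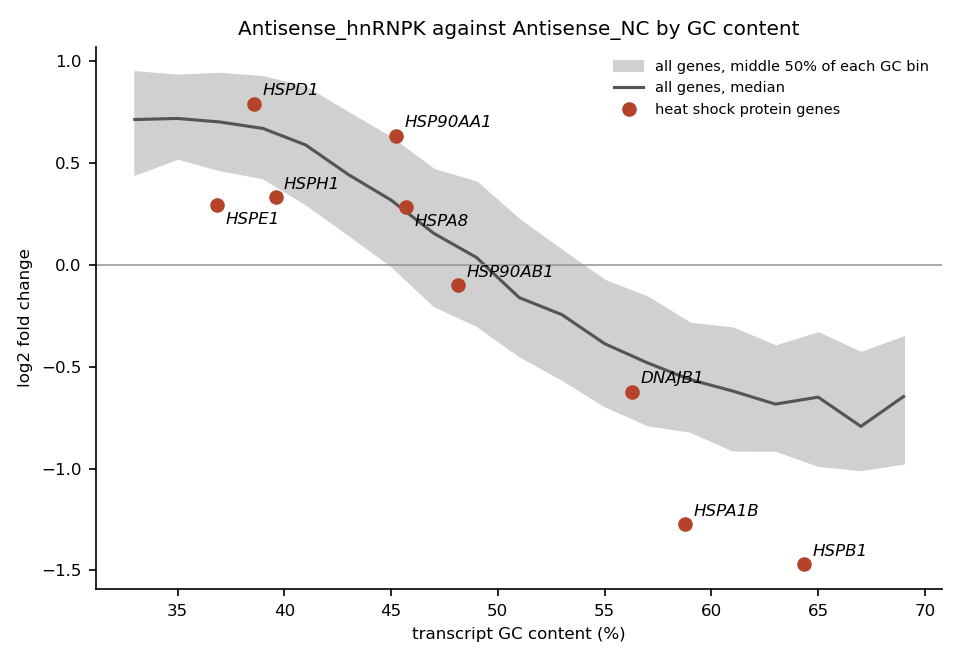
Log2 fold change of Antisense_hnRNPK against Antisense_NC (y axis) by transcript GC content in percent (x axis). The line is the median of all genes in each GC bin, the band the middle 50% of them, and the points the 9 members tested. HSPA1B (-1.27) and HSPB1 (-1.47) lay below the band, HSPE1 and HSPH1 below it at low GC, and HSPA8 on the median.

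With the GC and length trend of each library removed, HSPB1 (-0.83, adjusted p = 5.3e-04), HSPA1B (-0.72, adjusted p = 0.0041) and HSP90AA1 (0.38, adjusted p = 0.031) still passed in the same direction in the Antisense background. HSPE1 turned to -0.39 (adjusted p = 0.018) and HSPH1 to -0.26 (adjusted p = 0.020), DNAJB1 (-0.16, adjusted p = 0.103) and HSPD1 (0.16, adjusted p = 0.124) no longer passed, and HSPA8 was at 0.04 (adjusted p = 0.823). Without the third libraries and with the trend removed, a setting chosen after seeing the data, HSPA8 rose by 0.65 (adjusted p = 5.3e-04) in the Ctrl and by 0.52 (adjusted p = 2.9e-11) in the CRLM1 background. HSP90AA1 rose by 1.08 and 0.97, and HSPA1B by 0.94 (adjusted p = 4.6e-05) and 1.14 (adjusted p = 0.043). HSPB1 turned from lower to higher, at 0.26 (adjusted p = 0.0046) and 0.31 (adjusted p = 3.3e-06), and HSPE1 was at -0.08 (adjusted p = 0.420) and -0.26 (adjusted p = 0.0011).

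**Figure D4:**
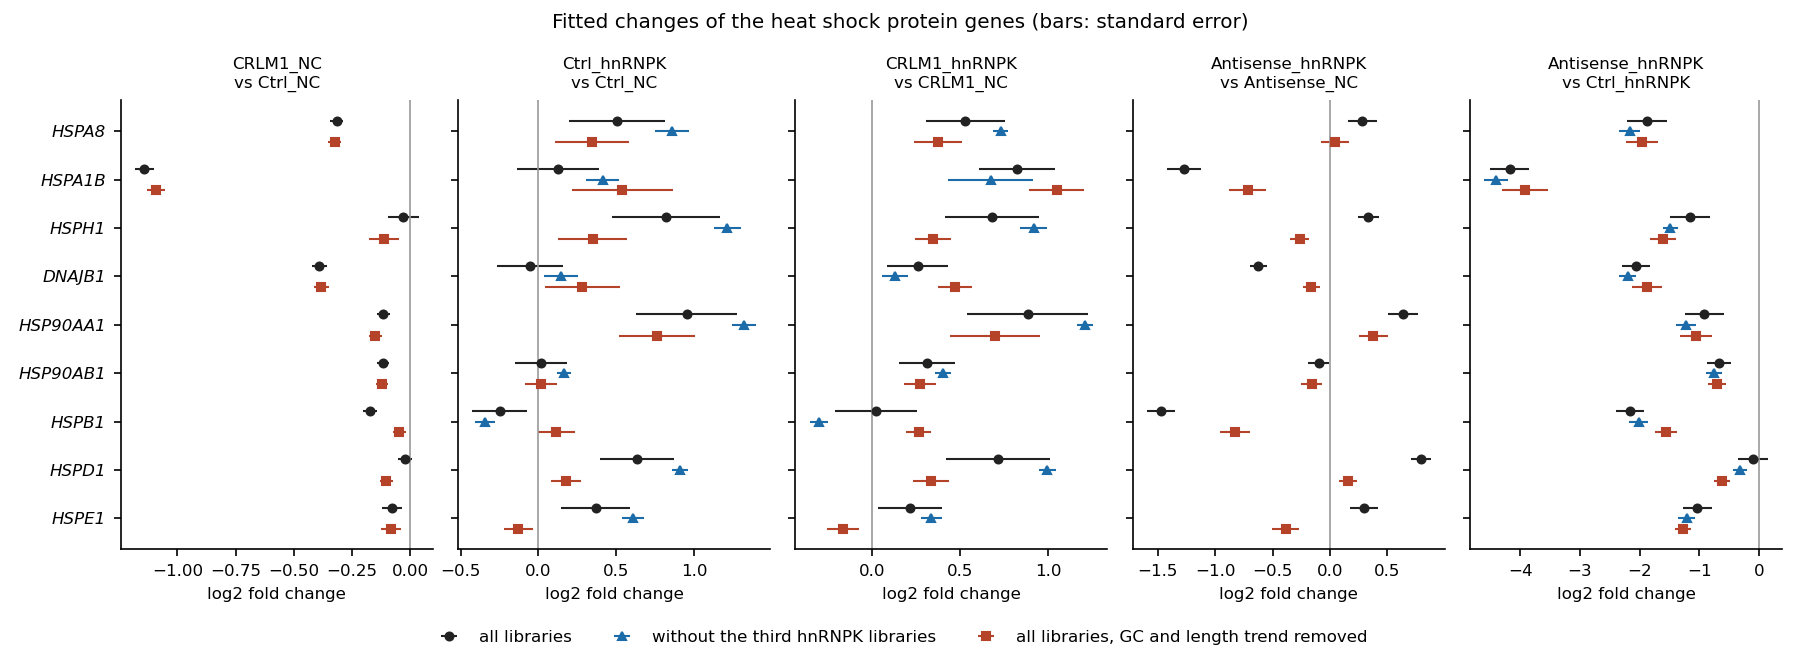
Log2 fold changes (x axes, linear, scale differs by panel) of the 9 members with enough counts (y axis) in 5 tested comparisons, with SE bars. Black circles use all libraries, blue triangles leave out replicate 3 of Ctrl_hnRNPK and of CRLM1_hnRNPK, and red squares remove the GC and length trend from all libraries. HSPA1B stood at -1.14 in CRLM1_NC against Ctrl_NC and at -4.17 in Antisense_hnRNPK against Ctrl_hnRNPK.

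Whether the hnRNPK effect differed between backgrounds was tested as an interaction. That of the Antisense and Ctrl backgrounds includes the Antisense_NC and Ctrl_NC libraries, whose contrast chose the set. Its tests are therefore not independent evidence. The interaction of the CRLM1 and Ctrl backgrounds shares the Ctrl_NC libraries with that contrast. Between the CRLM1 and Ctrl backgrounds 0 of 10 members and 0% of 15188 genes passed (221 genes at an unadjusted p under 0.05, and 0 members by DESeq2). Without the third libraries only HSP90AB1 passed, with an effect larger by 0.27 in CRLM1 (adjusted p = 0.020), as did 3.36% of all genes in that direction, 0.0904% in the other and 3.45% in either. Between the Antisense and Ctrl backgrounds 0 of 10 members and 0% of 15346 genes passed with all libraries (2179 genes at an unadjusted p under 0.05, and 2 members and 2.34% of all genes by DESeq2, 1.18% lower). Without the third libraries the effect was lower in the Antisense background for HSPA1B (-1.70, SE 0.231, adjusted p = 0.0016), HSPB1 (-1.14, adjusted p = 0.0014), HSPH1 (-0.90, adjusted p = 0.0010), DNAJB1 (-0.79, adjusted p = 0.0026) and HSP90AA1 (-0.70, adjusted p = 0.038), while 3.77% of all genes were lower, 2.85% higher and 6.62% in either direction. HSPA8 was at -0.59 (adjusted p = 0.081). With the GC and length trend removed as well, these 5 still passed and HSPA8 did too (-0.60, adjusted p = 0.0498), as did 4.19% of all genes in the lower direction and 7.61% in either.

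The backgrounds were also compared in the presence of hnRNPK. The members were chosen with earlier results of these data known, and whether these libraries entered that choice is not known, so the tests are not independent evidence. Antisense_hnRNPK was lower than Ctrl_hnRNPK for 8 of the 9 members tested and higher for 0, while 19.9% of all genes were called lower, 20.9% higher and 40.7% in either direction. HSPA1B fell by 4.17 on the log2 scale (SE 0.329, adjusted p = 1.1e-05), HSPB1 by 2.16 (SE 0.235, adjusted p = 5.6e-05), DNAJB1 by 2.06 (SE 0.237, adjusted p = 8.6e-05) and HSPA8 by 1.88 (SE 0.327, adjusted p = 9.2e-04). HSPH1 fell by 1.16 (adjusted p = 0.015), HSPE1 by 1.03 (adjusted p = 0.0057), HSP90AA1 by 0.92 (adjusted p = 0.040) and HSP90AB1 by 0.67 (adjusted p = 0.019). HSPD1 was at -0.10 (adjusted p = 0.771) with all libraries and at -0.32 (adjusted p = 0.039) without the third Ctrl_hnRNPK library, when 9 of 9 members were lower and, of all genes, 25.5% were lower, 29.2% higher and 54.6% either. HSPA8 was then at -2.17 (adjusted p = 3.8e-07), and 9 of 9 members were also lower with the GC and length trend removed, as were 23.1% of all genes (23.9% higher, 47% either). Libraries of the groups did not overlap for 6 of the 9 members, nor, in the lower direction, for 25% of all genes.

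On the FPKM scale the median of all genes was 0.38 higher (log2) in Antisense_hnRNPK than in Ctrl_hnRNPK, and calls were 4772 higher and 1232 lower against 3101 and 2950 by counts. On that scale HSPA1B, HSPB1, DNAJB1 and HSPA8 passed as lower, as did 9.44% of all genes, and relative to the shift they stood at -4.10, -2.16, -2.01 and -1.76. Leaving out the second library of Antisense_hnRNPK or of Ctrl_hnRNPK left 5 of the members past the threshold, all lower, with 11.3% and 18.3% of all genes lower. The stable lines were the same as in the NC groups, so these libraries are separate measurements of the same lines and not of separate lines.

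CRLM1_hnRNPK against Ctrl_hnRNPK called 0 of 10 members and 0.0137% of all genes (435 genes at an unadjusted p under 0.05, and 18 genes but no member by DESeq2). With all libraries, all 10 members overlapped between these groups, and only 8.97% of all genes did not overlap. Without the third libraries HSPA8 (-0.47, SE 0.106, adjusted p = 0.0061), HSPE1 (-0.37, adjusted p = 0.013) and HSPH1 (-0.35, adjusted p = 0.041) were lower with CRLM1, as were 7.65% of all genes, with 8.88% higher and 16.5% in either direction, and HSPA1B was at -0.91 (adjusted p = 0.104). With the number of the library as a block, 0 members passed, while 1023 genes did (6.99%).

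Transcripts of heat shock factors and of other stress-response genes were compared beside the members. HSF1 rose by 0.23 in CRLM1_NC against Ctrl_NC (adjusted p = 2.3e-05), where 6 members fell, and fell by 0.99 with hnRNPK in the Antisense background (adjusted p = 1.6e-07). HSF2, a related factor, rose by 0.30 (adjusted p = 0.019) and 0.42 (adjusted p = 0.0099) in these comparisons. BAG3, a nucleotide exchange factor and known HSF1 target, rose by 0.35 with CRLM1 (adjusted p = 4.2e-09) and fell by 1.07 with hnRNPK in the Antisense background (adjusted p = 1.5e-07). With the GC and length trend removed, HSF2 no longer passed with hnRNPK in the Antisense background (-0.15, adjusted p = 0.348), while HSF1 (-0.30, adjusted p = 0.0043) and BAG3 (-0.60, adjusted p = 1.5e-04) still fell. HSPA6, a strictly stress-inducible HSP70, had 0 to 4 counts in every library.

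The wider chaperone network was followed through 65 genes in 9 lists, of which 57 were tested in CRLM1_NC against Ctrl_NC. Of these 23 rose and 8 fell, with a median of 0.08, against 0 higher and 6 lower among the members. The difference was not tested. The members were chosen in a contrast against the same Ctrl_NC libraries, so these counts are not on equal terms. Of all genes, 16.9% were called higher and 17.4% lower. Among the TRiC subunits, the cytosolic chaperonin for actin and tubulin, 6 of 8 rose and 1 fell, and among the J-domain cochaperones 4 of 8 rose. Of the 6 other HSF1 targets 1 rose and 4 fell. HSPA4L, an HSP110 relative, rose by 0.51 (adjusted p = 1.8e-04), HSPA14 by 0.39 (adjusted p = 0.0027) and JMJD6 by 0.35 (adjusted p = 1.7e-09). HSF4 fell by 1.04 (adjusted p = 1.0e-05), IER5 by 0.36 (adjusted p = 1.1e-08) and SERPINH1, the collagen chaperone HSP47, by 0.35 (adjusted p = 1.3e-10).

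In Antisense_hnRNPK against Antisense_NC 24 of the 57 genes rose and 22 fell, while 33.4% of all genes were called higher and 30.5% lower. BAG2 rose by 1.15, CCT2 by 1.12 and CCT6A by 1.09, and 6 of the 8 TRiC subunits rose and 0 fell, whereas HSPB8 fell by 1.19, BAG3 by 1.07 and DNAJB5 by 0.99. With the GC and length trend removed 13 rose and 18 fell, while 19.1% of all genes were higher and 20.9% lower. TRiC counts were then 5 higher and 1 lower, and the HSP70 and HSP110 list went from 2 higher and 0 lower to 0 higher and 2 lower. In Antisense_hnRNPK against Ctrl_hnRNPK 10 of 56 genes tested rose and 13 fell, shares near those of all genes (20.9% higher and 19.9% lower). HSPA9, the mitochondrial HSP70, rose by 1.67 (adjusted p = 1.8e-04), HSPA4L by 1.36 and FKBP5, an HSP90 cochaperone, by 1.27, while HSF4 fell by 1.70, HSPB8 by 1.62 and SERPINH1 by 1.17. Without the third Ctrl_hnRNPK library 15 of the list genes rose and 20 fell (29.2% and 25.5% of all genes), with HSPA9 at 1.53 and HSF4 at -1.81. With all libraries the calls were 8 of 9 lower and 0 higher among the members, against 13 of 56 lower and 10 higher among these genes. The difference was not tested. The members were chosen after HSPA8 had been seen to be low in Antisense_NC, a group of the same stable line, so these counts are not on equal terms.

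Among 8439 genes whose mean reached 10 CPM over the 18 libraries, those whose log2 CPM correlated most with HSPA8 were MMD (Pearson r = 0.984), MCM4 (0.978), ANKRD10-IT1 (0.972), NLK (0.970) and FSTL1 (0.970). Among the members the coefficient was 0.966 for HSPE1, 0.943 for HSP90AB1, 0.889 for HSPH1, 0.883 for HSPA1B and 0.872 for DNAJB1. It was lower for HSP90AA1 (0.784), HSPB1 (0.627) and HSPD1 (0.470). Without the third libraries the first 5 genes stood at 0.979 to 0.992, and the members ran from 0.499 (HSPD1) to 0.966 (HSPE1). These coefficients are a description. The libraries share their groups, and the points of the Antisense groups lie apart from the rest.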

How the data were processed

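RNA was extracted with TRIZOL, libraries were made with the KAPA RNA HyperPrep kit, and paired 151-base reads were sequenced on a NextSeq 500. The authors trimmed reads with the FASTX-Toolkit, aligned them with TopHat2 (up to 4 mismatches) to GRCh38 with Gencode v23 and used uniquely mapped reads, and the submitters' processing notes also name bcl2fastq and edgeR. The deposited values were raw read counts per gene, and FPKM computed by the authors, rounded to 2 decimals. Versions of the upstream tools and the strand setting of the counting were not given in the sources used here.

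From the counts, CPM were computed after TMM scaling over all 18 libraries, and each comparison was fitted with edgeR 4.0.16 (quasi-likelihood test, R 4.3.3) on the libraries of its groups, after edgeR's filter on low counts, with p-values adjusted by Benjamini and Hochberg over all genes tested. Calls used an adjusted p of at most 0.05, and the study's call also a 2-fold change. Interactions were fitted over the 4 groups concerned. FPKM were tested with limma 3.58.1 on log2(FPKM + 0.1) after a filter at 0.5 FPKM, a scale that understates changes of low genes. DESeq2 1.42.0, RLE size factors, no filter, a replicate block, 1 fit of all libraries, a smooth GC and length trend removed per library (mgcv 1.9.3) and leaving out each library in turn were alternatives. The script was tested on simulated counts. Ratios of snoRNA to host counts were compared by the exact permutation test in SciPy 1.17.1. Correlations used log2(CPM + 0.5). Gene coordinates and the sequences of snoRNAs and transcripts came from Gencode 44, and promoter windows from RefSeq (GRCh38.p14). GC content, length and shared windows are those of the longest transcript of each gene, which need not be the one expressed.

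Groups came from the labels. The members and lists were chosen with earlier results of these data known. The genes named were the 10 members, HNRNPK and LINC01767 as checks, SNORD14A to SNORD14E, HSF1, HSF2, BAG3 and HSPA6, at most 3 highest and 3 lowest chaperone genes past the threshold with at least 1 CPM per comparison, the 5 genes most correlated with HSPA8 and any pseudogene above 10% of its member. Deviations of same-numbered libraries correlated at 0.847, 0.731 and 0.882 in CRLM1_hnRNPK against Ctrl_hnRNPK, where the numbering comes from the labels. The highest correlation with a library of another number was 0.624, 0.837 and -0.704 for replicates 1, 2 and 3. Replicate 2 was thus closer to another number than to its own, and replicate 3 stood apart in both groups. Pairing by number is therefore not established.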

Additional observations from a re-analysis of the deposited data

Results flagged for a closer look

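HSPA1B libraries with hnRNPK lay on opposite sides of their NC group in the CRLM1 and Antisense backgrounds. It was higher in all 3 CRLM1_hnRNPK libraries than in any CRLM1_NC library (log2 fold change 0.82, adjusted p = 0.533), and lower in all 3 Antisense_hnRNPK libraries than in any Antisense_NC library (-1.27, adjusted p = 6.8e-06). The difference between these backgrounds was not tested. With the GC and length trend removed the values were 1.05 (adjusted p = 0.037) and -0.72 (adjusted p = 0.0041). Replicate 3 of CRLM1_hnRNPK, 1 of the libraries behind the first value, stood apart from its group, and without it HSPA1B was at 0.67 (adjusted p = 0.097).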

How the results depend on the processing

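Counts are of members past the threshold, and percentages of all genes tested in the same fit, in either direction. In CRLM1_NC against Ctrl_NC 6 passed, 1 in the single fit of all libraries (0.651%), 4 on the FPKM scale (35.3%, where HSP90AA1 and HSP90AB1 fell short), and 6 to 6 with a library left out. In Ctrl_hnRNPK against Ctrl_NC 0 passed, 2 without the filter on low counts (0.942%), and 8 without the third library, with the GC and length trend left in (59.6%) or removed (25.3%) (leaving out each library gave 0 to 8). In CRLM1_hnRNPK against CRLM1_NC 0 passed, 1 with the trend removed (0.246%), 7 without the third library (58.5%) and 9 with both (27.5%), with 0 to 7 when each library was left out. In Antisense_hnRNPK against Antisense_NC 7 passed (63.9%), 4 in the single fit (40.6%), 5 with the trend removed (39.9%), and 6 to 8 with a library left out. There 8 passed on the FPKM scale (66.2%, HSPA8 among them) and 8 without the filter (35.6%). In CRLM1_hnRNPK against Ctrl_hnRNPK 0 passed, 3 without the third libraries (16.5%) and 5 with the trend removed too (16.4%), and 0 to 0 with a library left out. In Antisense_hnRNPK against Ctrl_hnRNPK 8 passed (40.7%), 4 on the FPKM scale (46%), and 5 to 9 with a library left out, with 5 without the second library of Antisense_hnRNPK (25.1%) or of Ctrl_hnRNPK (38%). For the interaction of the CRLM1 and Ctrl backgrounds 0 passed, 1 without the third libraries (3.45%) and 1 with the trend removed too (2.84%), and 0 to 0 with a library left out. For that of the Antisense and Ctrl backgrounds 0 passed, 2 without the filter (1.33%), 2 by DESeq2 (2.34%), 1 with the trend removed (2.33%), 5 without the third libraries (6.62%) and 6 with both (7.61%), and 0 to 5 with a library left out.

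Directions turned for HSPB1 (0.26) and DNAJB1 (0.59) in the Ctrl background without the third library and with the trend removed, for HSPB1 in the CRLM1 background without the third library (-0.31, where leaving out each library gave -0.31 to 0.18), for HSPE1 there with the trend removed too (-0.26), and in the Antisense background with the trend removed for HSPH1 (-0.26, or -0.27 with the block) and HSPE1 (-0.39, also with the block). The cause was not tested. Of 1311 member values under alternatives, 1173 stayed on their side of the threshold, of which 82 changed sign with neither value past it, 90 came past it, 39 fell short of it and 9 turned.

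With the replicate number as a block, members past the threshold were 6 in CRLM1_NC against Ctrl_NC, 0 in both Ctrl_hnRNPK and CRLM1_hnRNPK against their NC group, 7 in Antisense_hnRNPK against Antisense_NC, 0 in CRLM1_hnRNPK and 8 in Antisense_hnRNPK against Ctrl_hnRNPK, and 0 in both interactions. With the trend removed as well they were 6, 0, 0, 5, 0, 9, 0 and 1 in the same order. The block took genes past the threshold in CRLM1_hnRNPK against Ctrl_hnRNPK from 2 to 1023. In the other comparisons same-numbered libraries did not all deviate together (CRLM1_NC against Ctrl_NC -0.025, 0.052 and 0.0034). On the FPKM scale calls higher and lower were 2831 and 1491 in CRLM1_NC against Ctrl_NC (2449 and 2511 by counts) and 5570 and 2893 in Antisense_hnRNPK against Antisense_NC (4850 and 4418 by counts), and the median of all genes was higher by 0.23 in the latter. Depth limits HSPA1A, HSPA6 and the snoRNAs of the Antisense groups, which had few counts.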
